A study of Mus musculus with 22 samples.

Results

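The regions described here are annotated as gene body at a distance of 10 kb or more from the transcription start site, away from chromosome 11, and they come from 4 tables of regions in which H3K4me3 differed between groups of mouse synovial fibroblasts. They were chosen by the deposited annotation alone, as rows annotated as gene body whose distance from the start site was 10 kb or more. They numbered 6148 of the 26201 listed regions, of which 3525 of 13603 were listed at 3 weeks, 520 of 2923 at 8 weeks, 1768 of 6593 at 11 weeks and 335 of 3082 after TNF. They are called distal gene-body regions below. The compared groups were Tg197 cells against wild-type (WT) cells from mice aged 3, 8 or 11 weeks, and TNF-treated WT cells against untreated WT cells at 8 weeks, with 3 libraries in each group and 1 input library of mixed genotypes. Tg197 mice express human TNF from a transgene and become arthritic, all mice had a CBA x C57BL/6J background, and all cells were cultured fibroblasts of passages 4 to 5. The dose and duration of the TNF treatment are not given in the sources used here. Both comparisons at 8 weeks share the same 3 WT libraries. Whether libraries within a group stem from different animals or cultures is not in the labels, so the p-values measure the spread between these libraries only.

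H3K4me3 is a histone mark laid down by Set1 and MLL methyltransferase complexes, and it is concentrated at the start sites of active genes. Inside long genes the mark can lie at internal promoters of shorter transcripts and, at a lower level, at active enhancers. Synovial fibroblasts line the joint, secrete its matrix and lubricants, and in arthritis become invasive and produce cytokines and proteases.

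In 5 genes a distal gene-body region was lower and a promoter region was higher at 2 or more ages in the authors' deposited tables, namely Akt1, Antxr1, Atxn2, Pdgfrb and Snx9. The start sites of Akt1, a growth factor signalling kinase, and of Atxn2, an RNA-binding protein, are shown as annotated starts of genes with such a pair. Each sequence is the RefSeq promoter of 300 bases on the GRCm38.p6 build, 5′ to 3′ on the gene's strand, with each CG dinucleotide in capitals. CG reads the same on both strands.
Akt1, chr12:112674227-112674526, minus strand: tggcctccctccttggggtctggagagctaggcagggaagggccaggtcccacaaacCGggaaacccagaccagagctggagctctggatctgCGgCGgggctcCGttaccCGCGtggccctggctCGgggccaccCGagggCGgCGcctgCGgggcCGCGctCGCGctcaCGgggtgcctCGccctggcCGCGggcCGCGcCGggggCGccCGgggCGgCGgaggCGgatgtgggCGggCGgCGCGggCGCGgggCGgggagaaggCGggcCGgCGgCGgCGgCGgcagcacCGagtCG
Akt1, chr12:112674835-112675134, minus strand: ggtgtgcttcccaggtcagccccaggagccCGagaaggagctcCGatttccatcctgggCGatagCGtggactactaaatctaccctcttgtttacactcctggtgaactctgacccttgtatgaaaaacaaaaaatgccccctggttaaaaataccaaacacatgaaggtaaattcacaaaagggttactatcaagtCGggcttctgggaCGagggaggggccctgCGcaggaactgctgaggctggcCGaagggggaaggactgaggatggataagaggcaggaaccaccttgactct
Atxn2, chr5:121711359-121711658, plus strand: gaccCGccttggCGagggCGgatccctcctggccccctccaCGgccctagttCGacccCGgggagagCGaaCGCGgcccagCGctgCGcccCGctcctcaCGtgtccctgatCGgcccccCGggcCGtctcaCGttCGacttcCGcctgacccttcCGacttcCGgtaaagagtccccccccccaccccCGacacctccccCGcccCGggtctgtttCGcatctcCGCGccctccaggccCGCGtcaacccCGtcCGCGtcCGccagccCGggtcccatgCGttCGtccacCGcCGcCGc
Atxn2, chr5:121738282-121738581, plus strand: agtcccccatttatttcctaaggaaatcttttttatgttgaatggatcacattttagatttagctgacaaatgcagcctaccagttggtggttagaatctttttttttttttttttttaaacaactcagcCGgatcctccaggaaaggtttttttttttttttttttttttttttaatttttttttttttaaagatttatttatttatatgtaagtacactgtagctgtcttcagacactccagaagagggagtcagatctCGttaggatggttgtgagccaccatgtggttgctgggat
The first Akt1 start held 42 CG dinucleotides, a number reached by 3.03% of the 32851 promoters in the RefSeq table, and the first Atxn2 start held 39, reached by 4.45%. The second starts held 8 and 2, reached by 48.6% and 85.9% of promoters. The listed regions are on the mm9 build, so which of these starts carried the mark was not read from these coordinates. By symbol, 1828 of the 2526 genes with a distal gene-body region had a promoter in that table.

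Most of the distal gene-body regions were short. Their median length was 1000 bp at 8 and 11 weeks and 1100 bp in the other tables, and at least 70.1% of them were 1200 bp or shorter. The median distance from the start site was 30.6 kb at 3 weeks, 28.3 kb at 8 weeks, 34.1 kb at 11 weeks and 26.6 kb in the TNF table, and the farthest region lay 1332.4 kb away. Measured along the annotated transcript, the median region lay 64.6%, 70.1%, 66.1% and 72.6% of the way from the start to the end in the same order of tables. By distance, 106, 33, 61 and 16 regions lay past the annotated end of the gene, so not every region is inside its gene. The Akt1 region at 11 weeks, 21.3 kb from the start of a gene of 20.5 kb, and the Lsr region after TNF, 15.9 kb from the start of a gene of 15.7 kb, were among them. A single distal region was listed in 1005 of 1736 genes at 3 weeks, 379 of 432 at 8 weeks, 947 of 1263 at 11 weeks and 253 of 284 in the TNF table. At the 10 kb limit, the nearest listed region inside was that of Exosc1 at 3 weeks, just past the limit, with 152, 132 and 176 normalized counts in the Tg197 libraries and 249, 226 and 269.8 in the WT libraries. The nearest outside was that of Nedd4, with 112, 76.0 and 92.3 normalized counts in the Tg197 libraries and 142, 161 and 169 in the WT libraries.

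Every listed region had passed a best-window p of 0.0001 in the authors' comparison on these same libraries, so regions without a difference are not in the tables and the limma test below is not independent evidence. Values are the authors' normalized read counts per region. "Higher" and "lower" mean past the authors' adjusted p of 0.05, and "rose" and "fell" mean past an adjusted p of 0.05 in limma. The letters a, b and c follow the order of the values as deposited, and log2 changes are given with their standard error. The regions named for the largest changes, from the gene lists and for all 3 ages were chosen among those whose groups did not overlap. The lack of overlap in them is therefore not a result. The distal gene-body regions held between 24775 and 510474 recovered reads per library. The relative depth of the libraries ran from 0.5438 to 2.753, but each table has its own scale, so depths compare within a table only. WT libraries a and b at 3 weeks were the closest pair: their mean chi-square was 0.96 per distal gene-body region, which is counting noise, and 1.30 per listed region, while the other pairs had 1.24 to 68.09 per distal gene-body region. Among 15 fibroblast markers, 7 had a listed promoter region at 3 weeks in the authors' deposited tables, those of Pdgfrb, Pdpn, Vcam1 and Vim higher and those of Col1a1, Col6a1 and Lum lower. At 8 weeks Pdpn and Thy1 were higher, at 11 weeks Col6a1, Pdgfra, Pdgfrb and Vcam1 were higher, and after TNF Pdpn was higher and Pdgfrb lower. Of 32 markers of leukocytes, endothelium, muscle, cartilage, bone, fat, nerve sheath and epithelium, promoter regions of Comp and Sp7, genes of cartilage and bone, were lower in all 4 tables. Sox9 was lower at 8 weeks and after TNF, Ckm at 3 and 8 weeks, Itgam and Cdh1 at 3 weeks, Cd79a and Fcer1g at 8 weeks, and Adipoq at 11 weeks. Flt1 was higher and Tek lower at 3 weeks, and at 11 weeks Pecam1 and Sox10 were higher and Tek lower. Promoter regions of Ptprc, Cd3e, Csf1r, Cdh5, Des and Acan were not listed, and the part of other cell types in the results was not tested. A listed promoter region shows a difference and not the presence of a cell type, and fewer cells of a type cannot be told apart from less mark per cell.

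At all 3 ages and after TNF, H3K4me3 in distal gene-body regions was mostly lower in the Tg197 or TNF-treated cells, and the share of higher regions was largest at 11 weeks. In the authors' deposited tables, 34 regions were higher and 3470 lower at 3 weeks, where 9.71% of all listed regions were higher and 89.5% lower. At 8 weeks 18 were higher and 494 lower, against 20.2% and 77.2% of all listed regions. At 11 weeks 426 were higher and 1312 lower, against 29.8% and 67.0%. After TNF 10 were higher and 317 lower, against 24.6% and 72.3%. As shares of the distal gene-body regions, the higher ones made up 0.965%, 3.46%, 24.1% and 2.99%. Higher regions were thus a smaller share here than over each whole table. Promoter regions were 39.7%, 44.4%, 46.6% and 38.9% higher in the same order of tables. Gene-body regions within 10 kb were 1.27%, 7.23%, 26.5% and 3.80% higher, and intergenic regions 1.61%, 3.36%, 22.3% and 4.37%. In each table both were nearer to the distal ones than promoter regions were. Whether the classes differ beyond the spread between libraries was not tested.

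**Figure D1:**
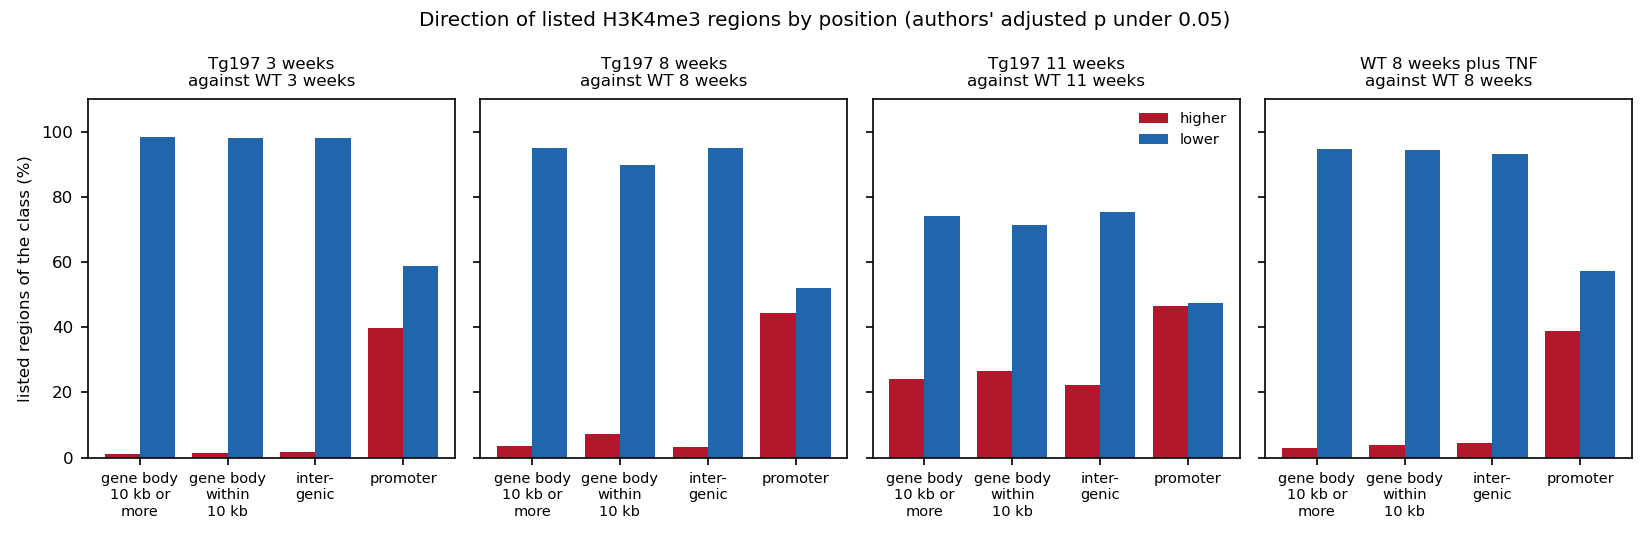
Share of listed regions that were higher (red) and lower (blue) past the authors' adjusted p of 0.05, for 4 classes of position in each of the 4 comparisons. Distal gene-body regions at 3 weeks were 98.4% lower, and those at 11 weeks were 74.2% lower and 24.1% higher.

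Distal gene-body regions had a median log2 change of -0.76 (3 weeks), -1.06 (8 weeks), -0.64 (11 weeks) and -1.26 (TNF), beside -0.70, -0.86, -0.60 and -0.58 over all listed regions. Scaling each library to its median over all listed regions moved the median of those regions by 0.67, 0.71, 0.34 and 0.51. Relative to the listed regions the distal gene-body ones then differed by -0.06, -0.20, -0.04 and -0.68. The tables list only regions that differed, so no unchanged regions were at hand to set the scale, and the direction of a change is that under the authors' scaling.

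The median change was much alike in all classes of distance into the gene. At 3 weeks the median log2 change was -0.73 between 10 and 20 kb, -0.76 between 20 and 50 kb, -0.79 between 50 and 100 kb, -0.75 between 100 and 200 kb and -0.78 beyond 200 kb. At 11 weeks the same classes had -0.62, -0.63, -0.65, -0.67 and -0.68, and higher regions made up 27.4%, 23.6%, 22.3%, 23.5% and 18.1% of them. These are descriptions of the same 6 libraries in each table.

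**Figure D2:**
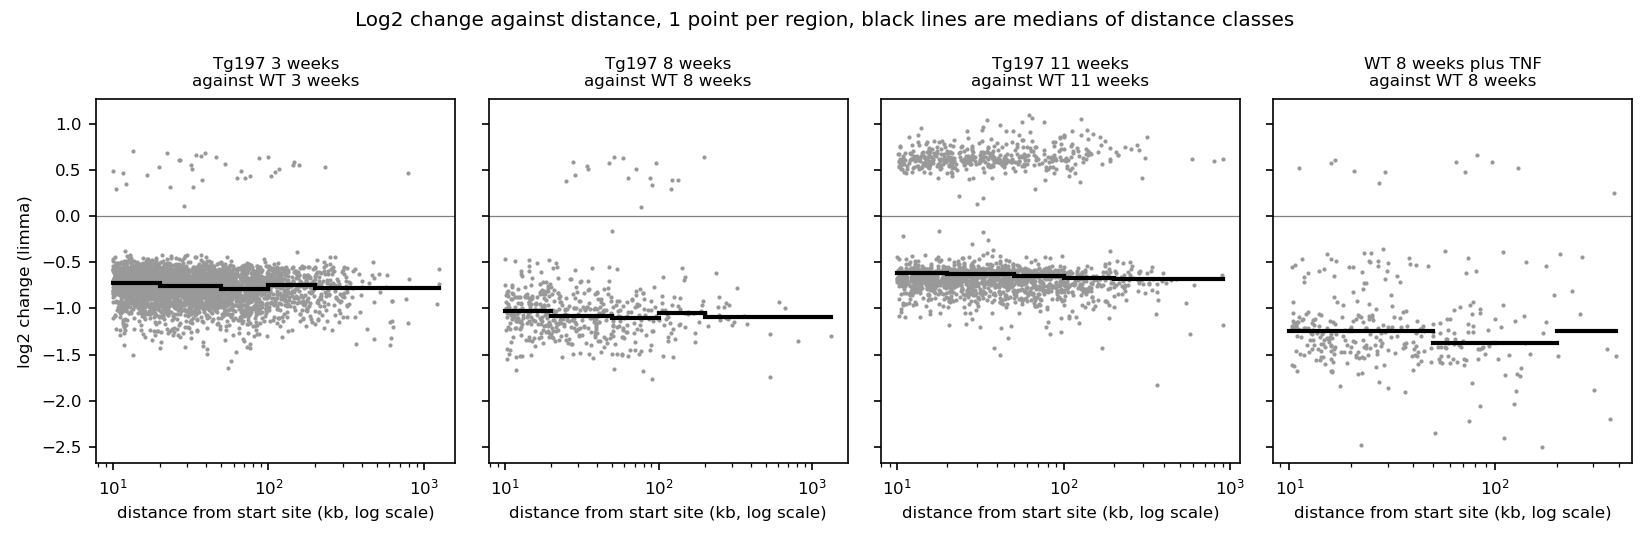
Log2 change by limma of every distal gene-body region against its distance from the start site on a log axis, in the 4 comparisons, with black lines at the median of each distance class. The medians at 3 weeks lie between -0.79 and -0.73 and those at 11 weeks between -0.68 and -0.62.

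At 3 weeks, the age the design calls early, the higher regions lay in genes such as Satb1, Serpina3g and Sh3pxd2a, and the lower ones in many genes, matrix, cytoskeletal and signalling genes among them. In limma 18 distal gene-body regions rose and 3464 fell, where 4.68% of all listed regions rose and 88.9% fell. The libraries of the groups did not overlap in 21 higher and 3355 lower regions, against 6.29% and 86.4% of all listed regions. Under the scaling to all listed regions, 29 rose and 2 fell. Without WT library c limma called 0 in either direction, without WT library a 5 rose and 2365 fell, and without WT library b 4 rose and 2276 fell. With WT libraries a and b counted as 1, 3 rose and 2658 fell, and of the regions named below those of Ip6k1, Sh3pxd2a, Etl4, Myo1h, Sh2d4a, Nomo1, Rora, Park2, Magi2 and Cdh4 no longer passed.

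Satb1, a chromatin organiser, had its region at chr17:51952001-51953000, 13.4 kb from the start, with 186, 242 and 160.2 normalized counts in Tg197 libraries a, b and c, against 141, 112 and 106 in WT libraries a, b and c. All 3 Tg197 libraries were above all 3 WT libraries, and the region rose by a log2 change of 0.70 ± 0.20 (adjusted p = 0.0143, limma). Its enrichment over input was 5.51 in Tg197 cells and 2.20 in WT cells. Serpina3g, a serine protease inhibitor, had 206, 199 and 190.1 normalized counts in the Tg197 libraries and 103, 133 and 137 in the WT libraries at chr12:105474201-105475700, and it rose by 0.68 ± 0.18 (adjusted p = 0.0143). Its Tg197 libraries were close together and above every WT library. Sh3pxd2a encodes a podosome scaffold, and its region at chr19:47393601-47395100, 144.5 kb from the start, had 327, 324 and 335 normalized counts in the Tg197 libraries and 196, 201 and 279.7 in the WT libraries, with WT library c the highest of its group. It rose by 0.56 ± 0.18 (adjusted p = 0.0162). Ip6k1, an inositol phosphate kinase, had 119, 96.8 and 205 normalized counts in the Tg197 libraries and 90.3, 83.8 and 77.6 in the WT libraries. Library c was far above the other two Tg197 libraries, and the region rose by 0.67 ± 0.25 (adjusted p = 0.0247). Etl4, needed for intervertebral disc development in mouse, was also among the 6 largest rises, with 221, 222 and 288 normalized counts in the Tg197 libraries and 139.7, 171 and 196 in the WT libraries.

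Of the 34 higher regions, 12 had 1 Tg197 library at least 1.5 times above the next, and library c was the highest in 20. Among the 3470 lower regions, library b was the lowest Tg197 library in 2951, and it was also the deepest library of the table with a relative depth of 1.72. Its median over the lower regions was 66.1, against 87.4 and 97.8 in Tg197 libraries a and c and 132.3, 133.0 and 144.2 in the WT libraries. Without library b, 28 regions rose and 3341 fell. The part of depth in these levels was not tested.

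Wdr63, a ciliary dynein subunit, was among the largest falls at 3 weeks. It had 77.9, 61.5 and 43.4 normalized counts in Tg197 libraries a, b and c, against 159, 176 and 201 in WT libraries a, b and c at chr3:145713001-145714500, and it fell with a log2 change of -1.57 ± 0.23 (adjusted p = 0.0143). The groups were far apart in all libraries, and enrichment over input was 1.41 in Tg197 cells and 2.73 in WT cells. Mthfd1, a folate enzyme, had 41.3, 18.6 and 81.5 normalized counts in the Tg197 libraries and 105, 131 and 143 in the WT libraries, with library b the lowest and library c the highest of the Tg197 group, and a log2 change of -1.64 ± 0.48 (adjusted p = 0.0144). Fam13c had 67.6, 41.7 and 46.2 normalized counts in the Tg197 libraries and 138, 134 and 153 in the WT libraries and a log2 change of -1.47 ± 0.26 (adjusted p = 0.0143). Myo1h, an unconventional myosin, Sh2d4a, an adaptor protein, and Nomo1, an endoplasmic reticulum membrane protein, changed by -1.50 ± 0.45, -1.49 ± 0.49 and -1.44 ± 0.48, and library b was the lowest Tg197 library in each. Over all lower regions at 3 weeks the median enrichment over input was 2.01 in Tg197 cells and 2.45 in WT cells, and 270 of 3470 reached 4 in either group. Over the 34 higher regions it was 4.62 in Tg197 cells and 2.18 in WT cells, and 22 reached 4.

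The genes with the most distal regions at 3 weeks were Dnahc8, an axonemal dynein heavy chain, with 40, Gm13152 with 36, and Btbd9, a BTB domain protein, with 20. Dnahc8 and Btbd9 both lie on chromosome 17. All 40 Dnahc8 regions were lower, 39 fell, and their log2 changes ran from -1.01 to -0.55. All 20 Btbd9 regions fell, with changes from -1.02 to -0.51. The Gm13152 regions had a median enrichment of 0.66 in Tg197 cells and 0.76 in WT cells, below the input. The highest counts at 3 weeks were likewise below the input: 2610005L07Rik had 1465, 746 and 1792 normalized counts in the Tg197 libraries and 1718, 1732 and 1571 in the WT libraries at chr8:19982301-19984800, with enrichments of 0.73 in Tg197 cells and 0.70 in WT cells. Tg197 library b was by far the lowest there, the groups overlapped, and the log2 change of -0.42 ± 0.30 did not pass the test (adjusted p = 0.194). Regions of 6820431F20Rik nearby had changes of -0.53 ± 0.25 and -0.48 ± 0.27 (adjusted p = 0.0618 and 0.101). Reads can be split between near-identical copies at such places, so these counts are uncertain.

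At 8 weeks most distal gene-body regions were lower in Tg197 cells, in genes such as Eefsec, Prkce and Pth1r, and 18 were higher, among them regions of Filip1l, Ahdc1, Casz1 and Rbpj. None passed limma: 0 rose and 0 fell (0.0% of all listed regions in either direction), and voom on the recovered reads also called 0. An unadjusted limma p under 0.05 was found in 408 of the 520 distal gene-body regions, beside 1876 of all 2923 listed regions. The libraries did not overlap in 11 higher and 328 lower regions, against 16.9% and 46.3% of all listed regions. Without WT library c, 6 rose and 499 fell. Under the scaling to all listed regions 12 rose and 27 fell, and under that to listed regions within 1 kb of a start site 0 rose and 417 fell.

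WT library c lay between its own group and the Tg197 group over the lower regions. The medians over those 494 regions were 47.6, 76.9 and 73.7 in Tg197 libraries a, b and c, against 172.5, 155.5 and 86.1 in WT libraries a, b and c. WT library c was the lowest WT library in 487 of them and had a relative depth of 1.39, against 0.684 and 0.637 for a and b. Tg197 library a was the lowest Tg197 library in 457 and had a relative depth of 1.87, against 0.742 and 1.26. In both groups the deepest library had the lowest level, and the part of depth in the difference was not tested.

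**Figure D3:**
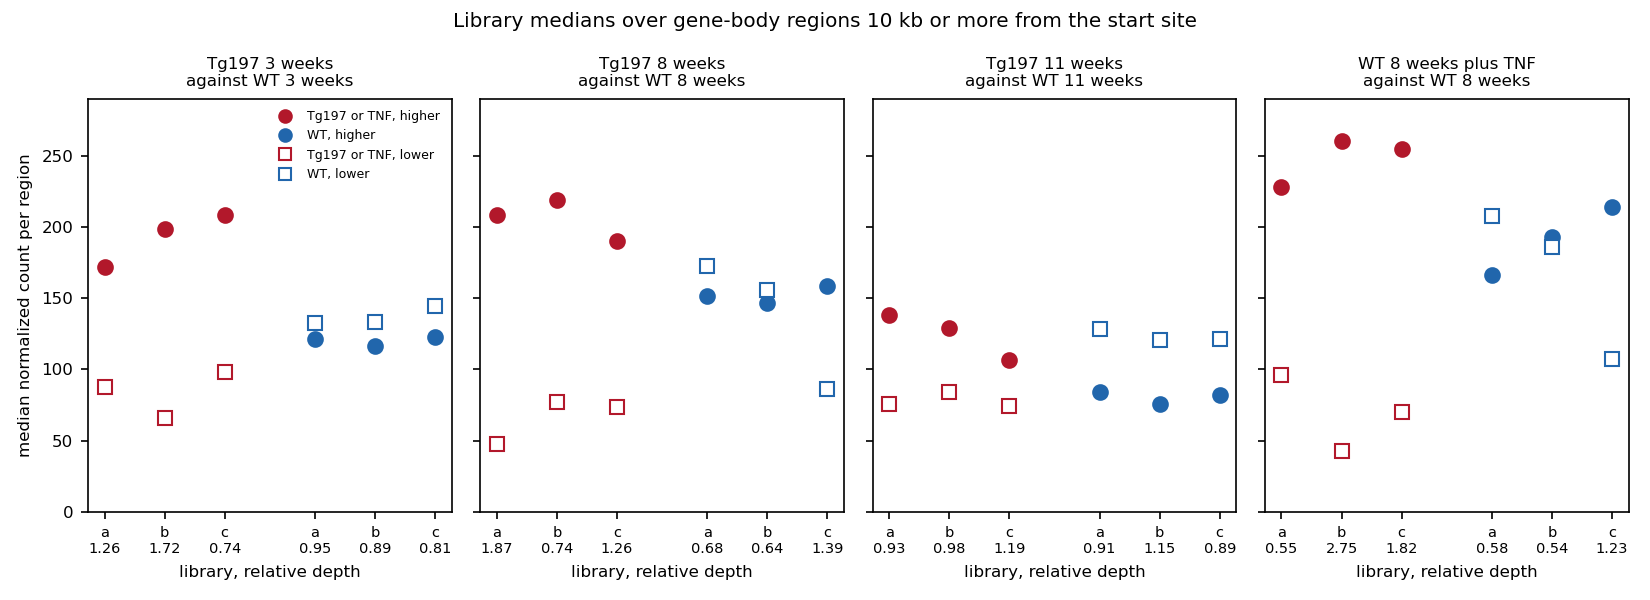
Median normalized count of each library over the higher (filled circles) and lower (open squares) distal gene-body regions, with Tg197 or TNF-treated libraries in red on the left and WT libraries in blue on the right of each panel, and the relative depth under each library's letter. Over the lower regions at 8 weeks WT library c, at 86.1, lies closer to the Tg197 libraries than to WT libraries a and b.

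Filip1l, a cytoskeleton-associated protein, had 262, 295 and 293 normalized counts in Tg197 libraries a, b and c, against 156, 231 and 165 in WT libraries a, b and c at chr16:57550201-57552100, 197.8 kb from the start. All Tg197 libraries were above all WT libraries, and the log2 change of 0.64 ± 0.22 had an adjusted p of 0.0725 in limma. Ahdc1, an AT-hook protein, had 237, 213 and 227 normalized counts in the Tg197 libraries and 155, 122 and 176 in the WT libraries, and Casz1, a zinc finger transcription factor, had 188, 169 and 160.0 normalized counts in the Tg197 libraries and 101, 121 and 125 in the WT libraries. The groups did not overlap in either region, and the log2 changes were 0.59 ± 0.22 and 0.58 ± 0.22 (adjusted p = 0.0725 and 0.0725). Rbpj, the DNA-binding effector of Notch signalling, had 214, 217 and 195 normalized counts in the Tg197 libraries and 127, 129 and 177 in the WT libraries, with WT library c the highest of its group. Arhgap22, a Rac GTPase-activating protein, and Asap1, an Arf GTPase-activating protein, had log2 changes of 0.51 ± 0.22 and 0.51 ± 0.19 (adjusted p = 0.0781 and 0.0725). Enrichment over input at these 6 regions was between 3.08 and 7.44 in Tg197 cells and between 1.33 and 3.39 in WT cells.

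Among the lower regions, Eefsec, the elongation factor for selenocysteine, had 23.5, 32.4 and 70.5 normalized counts in Tg197 libraries a, b and c, against 168, 135 and 95.4 in WT libraries a, b and c. Prkce, a protein kinase C, had 22.4, 47.2 and 41.2 normalized counts in the Tg197 libraries and 152, 138 and 71.0 in the WT libraries, and Pth1r, the parathyroid hormone receptor, had 23.5, 66.1 and 55.4 normalized counts in the Tg197 libraries and 196, 151 and 95.4 in the WT libraries. In all 3 regions WT libraries a and b were well above every Tg197 library and WT library c lay between them. The log2 changes were -1.76 ± 0.54, -1.68 ± 0.57 and -1.66 ± 0.50 (adjusted p = 0.0725 for each in limma). Myo9b, an unconventional myosin, Emid2, a collagen, and Phldb1 had log2 changes of -1.65 ± 0.46, -1.55 ± 0.55 and -1.54 ± 0.52. The highest counts came from Speer7-ps1 and Speer8-ps1, members of a multicopy gene family on chromosome 5. The Speer7-ps1 region at chr5:15192801-15200500 had 1894, 2468 and 1213 normalized counts in the Tg197 libraries and 5336, 7126 and 1181 in the WT libraries, with WT library c below all Tg197 libraries and enrichments of 0.43 in Tg197 cells and 0.57 in WT cells. Reads from near-identical copies can be split or shared there, so these counts are uncertain.

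At 11 weeks, the age the design calls late, both directions were common: Bach2, Chst11, Cars2 and Srebf2 had the largest rises, while B930007M17Rik, Epha5 and Edil3 had the largest falls. In limma 429 distal gene-body regions rose and 1329 fell, where 29.6% of all listed regions rose and 67.7% fell. The libraries did not overlap in 405 higher and 1311 lower regions, against 28.8% and 67.1% of all listed regions. Leaving out any 1 library gave between 390 and 430 rises and between 1293 and 1326 falls. Under the scaling to all listed regions, 436 rose and 262 fell.

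Bach2, a transcriptional repressor, had 109, 122 and 84.6 normalized counts in Tg197 libraries a, b and c, against 53.0, 50.6 and 42.7 in WT libraries a, b and c at chr4:32387501-32388500, 62.1 kb from the start. The lowest Tg197 library was well above the highest WT library, and the region rose by a log2 change of 1.09 ± 0.21 (adjusted p = 0.00434, limma). Chst11, a chondroitin sulfotransferase, had 111, 112 and 92.9 normalized counts in the Tg197 libraries and 35.3, 49.7 and 73.0 in the WT libraries, and it rose by 1.05 ± 0.25 (adjusted p = 0.00441). Cars2, the mitochondrial cysteinyl-tRNA synthetase, had 112, 106 and 93.8 normalized counts in the Tg197 libraries and 49.7, 71.5 and 34.8 in the WT libraries and rose by 1.05 ± 0.25. WT libraries varied among themselves in both regions but stayed below all Tg197 libraries. Srebf2, a regulator of sterol synthesis genes, Lrpprc, a mitochondrial RNA-binding protein, and 4930417M19Rik rose by 1.03 ± 0.23, 1.02 ± 0.22 and 0.99 ± 0.24. Over the 426 higher regions the median count was 126.5 in Tg197 cells and 79.9 in WT cells, and the median enrichment over input was 2.72 in Tg197 cells and 1.65 in WT cells. At 3 weeks the higher regions had medians of 187.5 in Tg197 cells and 121.9 in WT cells. The tables were normalized separately and list different regions, so these medians compare between groups within a table and not between ages.

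B930007M17Rik had 55.7, 37.9 and 33.5 normalized counts in Tg197 libraries a, b and c, against 231, 91.6 and 156 in WT libraries a, b and c at chr3:139229101-139230100, and it fell with a log2 change of -1.84 ± 0.30 (adjusted p = 0.00434). The WT libraries were spread widely there, with a the highest and b the lowest, and all Tg197 libraries were below all of them. Epha5, an ephrin receptor, had 41.8, 48.2 and 29.3 normalized counts in the Tg197 libraries and 122, 95.1 and 119 in the WT libraries, and Edil3, an integrin-binding matrix protein, had 73.9, 66.6 and 72.0 normalized counts in the Tg197 libraries and 277, 126 and 200 in the WT libraries. They fell with log2 changes of -1.51 ± 0.24 and -1.43 ± 0.23 (adjusted p = 0.00434 for both). The groups did not overlap in either, and WT library b was the lowest WT library in both. Mycbp2, an E3 ubiquitin ligase, Fam116a, a DENN domain protein, and Cacna2d3, a calcium channel subunit, changed by -1.42 ± 0.25, -1.32 ± 0.30 and -1.28 ± 0.27. Bre, a subunit of a deubiquitinating complex, had 9 distal regions, Dnahc10 had 7 and Dnahc8 had 7, and all of them fell. The regions with the highest counts were in Cdk8, a Mediator kinase, with 1374, 1515 and 1363 normalized counts in the Tg197 libraries and 1364, 1169.5 and 1366 in the WT libraries, and Zc3h7a, with 1235, 1329.8 and 1233 normalized counts in the Tg197 libraries and 1177, 1006 and 1145 in the WT libraries. The Cdk8 groups overlapped with a log2 change of 0.13 ± 0.08 (adjusted p = 0.139), while Zc3h7a rose by 0.19 ± 0.08 (adjusted p = 0.0277). Enrichment over input was 2.41 in Tg197 cells and 2.09 in WT cells at Cdk8, and 2.33 and 1.94 at Zc3h7a. The medians over distal gene-body regions at 11 weeks were 1.90 and 2.37, at a median count of 101.1. The input was thus also high at both places, so these counts are uncertain.

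**Figure D4:**
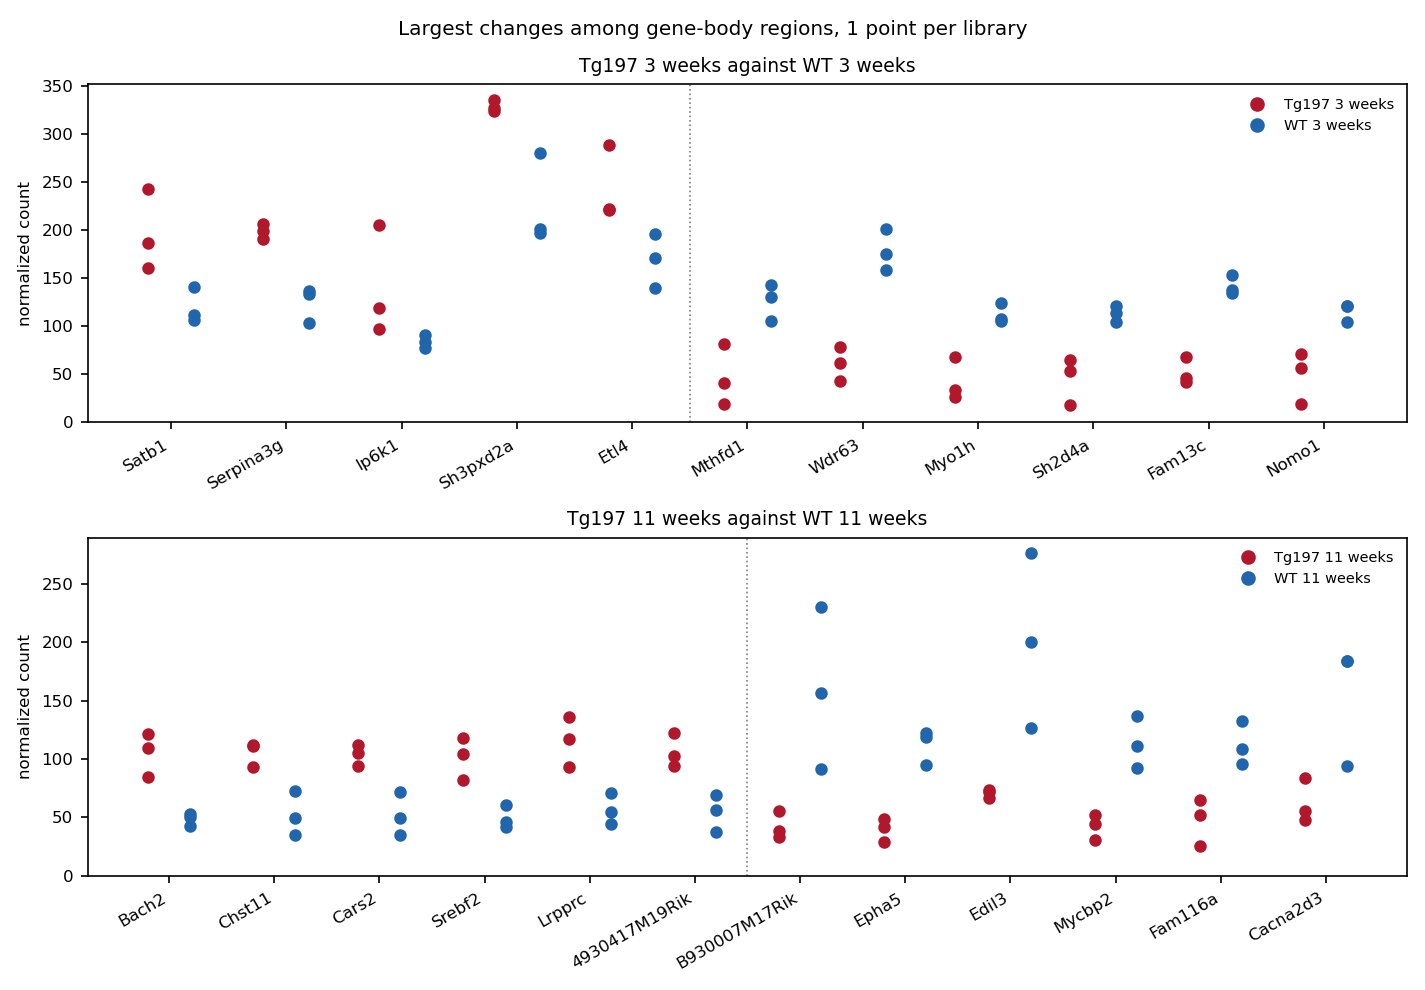
Normalized counts per library, on a linear axis, in regions from the 6 largest rises and the 6 largest falls at 3 weeks (top) and 11 weeks (bottom), of which 1 rise at 3 weeks is not shown, with Tg197 libraries in red on the left and WT libraries in blue on the right of each gene. The groups do not overlap in any of these regions, which the choice of these regions required.

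Some genes had both higher and lower distal regions at 11 weeks. Of 311 genes with at least 2 called distal regions, 169 had only lower ones, 13 only higher ones and 129 both. At 3 weeks 717 of 727 such genes had only lower regions, 0 only higher ones and 10 both. Of all distal gene-body regions 24.1% were higher at 11 weeks and 0.965% at 3 weeks. With these shares, nothing particular to the genes with both directions is read from their number. Genes with a listed promoter region made up 27.1% of the 1730 genes with a called distal region at 3 weeks, 11.3% of 425 at 8 weeks, 13.5% of 1241 at 11 weeks and 13.6% of 279 after TNF. At 3 weeks the distal and the promoter regions were both lower in 320 of these 469 genes, and in 117 the distal regions were lower while the promoter was higher. At 11 weeks the same counts were 75 and 40 of 167 genes, and in 18 both were higher. At 3 weeks 98.4% of all distal gene-body regions were lower and 39.7% of all listed promoter regions higher. At 11 weeks these shares were 74.2% and 46.6%. At both ages opposed pairs were a smaller part of these genes than higher regions were of all listed promoter regions. The counts are over genes and the shares over regions, and the difference was not tested. Nothing particular to these genes is read from the counts of opposed pairs.

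Akt1 was 1 of the 5 genes with the opposed pattern at 2 ages. Its distal region at chr12:113900301-113901600 had 82.7, 61.5 and 130.4 normalized counts in Tg197 libraries a, b and c, against 152, 158 and 164 in WT libraries a, b and c, and fell with a log2 change of -0.85 ± 0.24 (adjusted p = 0.0143). Its promoter region in the same libraries had 462, 488 and 348 normalized counts in the Tg197 libraries and 309.8, 334 and 297 in the WT libraries, and rose by 0.45 ± 0.18 (adjusted p = 0.0327). The groups did not overlap at either end of the gene. At 11 weeks the distal region at chr12:113890501-113891800 fell with a log2 change of -0.75 ± 0.14 (adjusted p = 0.00434) and the promoter rose by 0.42 ± 0.11 (adjusted p = 0.00481). That region lies 21.3 kb from the start site. Antxr1, a collagen-binding receptor, changed by -1.08 ± 0.28 in the gene body and 0.44 ± 0.18 at the promoter at 3 weeks, and by -0.69 ± 0.17 and 0.68 ± 0.12 at 11 weeks, all past the test. In Atxn2 the distal region fell with a log2 change of -0.83 ± 0.19 at 3 weeks (adjusted p = 0.0143), and its promoter, with 531, 554 and 308 normalized counts in the Tg197 libraries and 352, 369 and 352 in the WT libraries, overlapped between the groups at Tg197 library c (adjusted p = 0.166). At 8 weeks neither end of Atxn2 passed limma (adjusted p = 0.0892 in the gene body and 0.101 at the promoter), and the groups overlapped at both. Pdgfrb, a growth factor receptor, passed at both ends at 11 weeks, while at 3 weeks its promoter did not (adjusted p = 0.0633). The Snx9 promoter did not pass at 3 or 8 weeks (adjusted p = 0.133 and 0.114), nor did its gene-body region at 8 weeks (adjusted p = 0.0725). Akt1 and Antxr1 were thus the only ones of the 5 genes that passed limma at both ends at both ages.

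After TNF the distal gene-body regions were mostly lower, with a median log2 change of -1.26, and the 10 higher ones included regions of Rgs3, Casz1, Lsr and Asap1. In limma 8 rose and 222 fell, where 16.5% of all listed regions rose and 42.6% fell. The libraries did not overlap in 9 higher and 255 lower regions, against 22.4% and 51.8% of all listed regions. Leaving out TNF-treated library b or c, or WT library a or b, left 0 calls in either direction. Without TNF-treated library a 6 rose and 280 fell, and without WT library c 8 rose and 305 fell. Under the scaling to all listed regions 11 rose and 62 fell, and voom gave 4 rises and 282 falls.

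The medians over the 317 lower regions were 95.9, 42.9 and 69.9 in TNF-treated libraries a, b and c, against 207.6, 185.7 and 107.1 in untreated WT libraries a, b and c. TNF-treated library b, the lowest in 303 of them, had the largest relative depth of its table, 2.75. WT library c, the lowest WT library in 304, had 1.23 against 0.583 and 0.544 for a and b. The order of levels followed the inverse order of depth in the TNF-treated group, and the part of depth in the difference was not tested.

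Rgs3, a regulator of G-protein signalling, had 391, 729 and 529 normalized counts in TNF-treated libraries a, b and c, against 371, 340.2 and 303 in untreated WT libraries a, b and c at chr4:62361001-62362700. All TNF-treated libraries were above the WT ones, with library b the highest, and the region rose by 0.66 ± 0.21 (adjusted p = 0.046, limma). Lsr, a lipoprotein receptor, had 279, 264 and 222 normalized counts in the TNF-treated libraries and 151, 189 and 171 in the untreated WT libraries and rose by 0.58 ± 0.16 (adjusted p = 0.046). Adipor2, an adiponectin receptor, rose by 0.48 ± 0.17 (adjusted p = 0.0464), and Rbms3, an RNA-binding protein, did not pass limma with 0.26 ± 0.14 (adjusted p = 0.105). Among the lower regions, Mical2, an actin-oxidising enzyme, had 103, 27.6 and 44.0 normalized counts in the TNF-treated libraries and 216, 232 and 131 in the untreated WT libraries, and Col5a1, a chain of collagen V, had 79.6, 23.6 and 39.6 normalized counts in the TNF-treated libraries and 189, 176 and 99.8 in the untreated WT libraries. TNF-treated library b was the lowest of all 6 libraries in both, and WT library c was the lowest of the WT group. They fell with log2 changes of -1.89 ± 0.53 and -1.81 ± 0.61 (adjusted p = 0.046 for both). Arfgef2, Pkp1, Dlat and Fubp3 completed the 6 largest falls with changes of -1.91 ± 0.71, -1.86 ± 0.67, -1.84 ± 0.69 and -1.80 ± 0.61. Nfix, a nuclear factor I transcription factor, had 8 lower regions, of which 5 fell. Their median enrichment over input was 4.14 in TNF-treated cells and 3.86 in WT cells, the opposite order to that of the normalized counts. This was not particular to Nfix. Enrichment was higher in TNF-treated cells at 54 of the 317 lower distal regions and at 885 of 1044 lower promoter regions. Enrichments and counts thus did not always give the same order of the groups, and the reason was not tested. Lrp1, an endocytic receptor, had 4 regions that all fell.

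Asap1, Ahdc1, Casz1, Kctd16 and Gtf2ird1 had overlapping regions in both tables at 8 weeks, which share their WT libraries but were normalized separately. The Asap1 region at chr15:64142601-64143800 had identical coordinates in both. It had 293, 244 and 257 normalized counts in the Tg197 libraries and 187, 174 and 196 in the WT libraries in the Tg197 table, and 242, 320.0 and 352 normalized counts in the TNF-treated libraries and 219.6, 204 and 222 in the untreated WT libraries in the TNF table. Ahdc1 had a log2 change of 0.59 ± 0.22 in Tg197 cells (adjusted p = 0.0725) and rose by 0.36 ± 0.12 after TNF (adjusted p = 0.0461). Casz1 had a log2 change of 0.58 ± 0.22 in Tg197 cells and rose by 0.58 ± 0.19 after TNF (adjusted p = 0.0725 and 0.046). At Asap1, Ahdc1 and Casz1 every Tg197 or TNF-treated library was above every WT library of its table. Kctd16, a potassium channel tetramerisation domain protein, had 578, 3374 and 1999 normalized counts in the Tg197 libraries and 1738, 1832 and 1724 in the WT libraries in the Tg197 table, where the groups overlapped, and 1677, 393 and 1158 normalized counts in the TNF-treated libraries and 2059, 2176 and 1957 in the untreated WT libraries in the TNF table, where they did not. In limma its log2 changes were -0.16 ± 0.66 in Tg197 cells and -1.17 ± 0.49 after TNF (adjusted p = 0.812 and 0.0554), and the authors' deposited tables give log2 folds of 0.17 and -0.94. The Kctd16 enrichment over input was 2.55 in Tg197 cells and 1.97 in WT cells in the Tg197 table. Medians over distal gene-body regions there were 1.69 and 2.40, at a median count of 103.1. The input was thus also high at Kctd16, so its counts are uncertain. Gtf2ird1, a transcription factor, had log2 changes of 0.10 ± 0.54 in Tg197 cells and -0.93 ± 0.44 after TNF (adjusted p = 0.862 and 0.0767), the authors' deposited tables give 0.45 and -0.67, and its groups overlapped in both tables.

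The gene lists below are read against all distal gene-body regions, of which 18 rose and 3464 fell of 3525 at 3 weeks, 429 rose and 1329 fell of 1768 at 11 weeks, and 8 rose and 222 fell of 335 after TNF. A list whose regions nearly all fell at 3 weeks therefore did what nearly all distal gene-body regions did.

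Genes of TNF and NF-kB signalling had few distal regions. Of 28 genes in the list, 3 had such regions at 3 weeks, where all 7 fell with a median log2 change of -0.83, beside -0.76 over all distal gene-body regions. Traf3, an adaptor that restrains non-canonical NF-kB signalling, had 65.2, 47.5 and 44.8 normalized counts in the Tg197 libraries and 136, 123 and 150.3 in the WT libraries at chr12:112480201-112481400 and fell with a log2 change of -1.39 ± 0.26 (adjusted p = 0.0143). Traf1 and Traf2, adaptors of TNF receptors, changed by -1.05 ± 0.27 and -0.65 ± 0.23 (adjusted p = 0.0143 and 0.0192). Traf2 changed sign to 0.01 under the scaling to all listed regions. At 11 weeks 3 of 4 regions rose, in Traf5, another adaptor, Ikbkb, the kinase of the NF-kB inhibitor, and Relb, a subunit of NF-kB, and 1 further Relb region fell. Traf5 had 142, 158 and 123 normalized counts in the Tg197 libraries and 96.0, 80.2 and 98.9 in the WT libraries and rose by 0.62 ± 0.16 (adjusted p = 0.0045), and Relb had 125, 119 and 111 normalized counts in the Tg197 libraries and 83.9, 82.8 and 73.0 in the WT libraries and rose by 0.57 ± 0.16 (adjusted p = 0.00511). The groups did not overlap in these regions of Traf5 and Relb, which their choice required. With 4 regions, the list was too small at 11 weeks to set its share beside the 429 of 1768 that rose overall. The list had 0 distal regions at 8 weeks and 0 after TNF.

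Of 34 matrix and crosslinking genes, 14 had distal regions at 3 weeks, and all 46 regions fell, close to the share over all distal gene-body regions (3464 of 3525). Fn1, fibronectin, had 132, 84.6 and 169.7 normalized counts in the Tg197 libraries and 249, 227 and 230.4 in the WT libraries at chr1:71686701-71688400 and fell with a log2 change of -0.92 ± 0.23 (adjusted p = 0.0143). Fbn1, the microfibril protein fibrillin, had 78.7, 57.4 and 67.9 normalized counts in the Tg197 libraries and 125, 128 and 133 in the WT libraries and fell with a log2 change of -0.93 ± 0.21. Col12a1, Col5a2, Thsd4 and the crosslinking enzyme Loxl1 fell with log2 changes of -1.11 ± 0.30, -0.69 ± 0.22, -0.91 ± 0.21 and -0.67 ± 0.18. At 8 weeks 11 regions of 6 genes were lower, at 11 weeks 18 of 19 regions in 8 genes fell, beside 1329 of all 1768, and after TNF 6 regions of 3 genes were lower, of which 4 fell, beside 222 of 335 overall. Medians of the list were -0.75, -1.15, -0.69 and -1.41, beside -0.76, -1.06, -0.64 and -1.26 over all distal gene-body regions.

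Of 30 cytoskeletal and adhesion genes, 13 had distal regions at 3 weeks, where 2 regions rose, Tns1 among them, and 54 fell, beside 18 and 3464 of all 3525 distal gene-body regions. Tpm1, a tropomyosin, had 162, 178 and 186 normalized counts in the Tg197 libraries and 264, 312 and 286 in the WT libraries and fell with a log2 change of -0.71 ± 0.17 (adjusted p = 0.0143), and Itgb5, an integrin chain, fell with a log2 change of -0.64 ± 0.17 under the authors' scaling and was at 0.03 under that to all listed regions. Itga11, a collagen receptor, and Pdlim5 fell with log2 changes of -0.92 ± 0.25 and -1.28 ± 0.30. At 11 weeks 13 regions fell and 3 rose, in Itgb5, Lpp and Tns1, shares near the 1329 and 429 of 1768 overall. Cd44, the hyaluronan receptor, had 50.3, 69.7 and 83.7 normalized counts in the Tg197 libraries and 144, 126 and 124 in the WT libraries there and fell with a log2 change of -0.97 ± 0.20 (adjusted p = 0.00434), and Vcl, vinculin, fell with a log2 change of -0.61 ± 0.13. All Tg197 libraries of Cd44 were below all WT libraries, which the choice of the region required. At 8 weeks 3 regions were lower, in Actn1, Myh9 and Pdlim7, and after TNF 4 fell, in Myh9 and Tns1.

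Of 34 genes of TGF-beta, BMP and Wnt signalling, 14 had distal regions at 3 weeks, and all 50 fell, as did 3464 of the 3525 distal gene-body regions. Ski, a repressor of Smad signalling, had 283, 238 and 286 normalized counts in the Tg197 libraries and 419, 408 and 434 in the WT libraries and fell with a log2 change of -0.65 ± 0.17 (adjusted p = 0.0143), and was at 0.02 under the scaling to all listed regions. Axin1, a scaffold that promotes beta-catenin breakdown, and Tgfbr3, a TGF-beta co-receptor, fell with log2 changes of -0.84 ± 0.21 and -1.14 ± 0.28. At 11 weeks 5 regions rose, in Lrp5, Smad3 and Tgfbr3, and 19 fell, near the overall shares of 429 and 1329 of 1768. Wwtr1, the Hippo pathway coactivator TAZ, had 139, 108 and 107 normalized counts in the Tg197 libraries and 199, 199 and 203 in the WT libraries and fell with a log2 change of -0.77 ± 0.13 (adjusted p = 0.00434), and Ror2, a Wnt receptor, and Tcf7l2, a Wnt effector, fell with log2 changes of -0.84 ± 0.18 and -0.77 ± 0.16. Their groups did not overlap, which the choice of these regions required. At 8 weeks 6 regions were lower, and after TNF 4 of 5 were lower and 3 fell.

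Of 30 fibroblast and limb transcription factors, 10 had distal regions at 3 weeks, and 30 of 31 regions fell, beside 3464 of 3525 overall. At 11 weeks 4 of 15 rose, in Ebf3, Runx2 and Twist2, and 11 fell, again near the shares over all distal gene-body regions (429 and 1329 of 1768). Ebf3 had 122, 118 and 111 normalized counts in the Tg197 libraries and 72.8, 53.2 and 68.5 in the WT libraries at chr7:144404901-144406100. It rose by 0.86 ± 0.18 (adjusted p = 0.00434). Nfix had 207, 224 and 209 normalized counts in the Tg197 libraries and 275, 314 and 306 in the WT libraries and fell with a log2 change of -0.48 ± 0.10, and a Runx2 region had 167, 178 and 152 normalized counts in the Tg197 libraries and 228, 208 and 239 in the WT libraries and fell with a log2 change of -0.44 ± 0.11 (adjusted p = 0.00434 and 0.00456). Both were strongly marked, with enrichments of 5.43 in Tg197 cells and 7.29 in WT cells at Nfix and 5.43 in Tg197 cells and 7.04 in WT cells at Runx2. Tcf4, a basic helix-loop-helix factor, fell with a log2 change of -0.52 ± 0.10. At 8 weeks Foxp1, a forkhead repressor, had 215, 201 and 212 normalized counts in the Tg197 libraries and 148, 160.2 and 171 in the WT libraries and was the only higher region of 8 (log2 change 0.39 ± 0.19, adjusted p = 0.0927). After TNF all 10 regions, in Nfix, Runx1 and Tcf4, were lower and 7 fell.

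Of 30 receptor tyrosine kinase and growth factor genes, 7 had distal regions at 3 weeks, and all 20 fell, a share near the 3464 of 3525 overall. Fgfr1, a fibroblast growth factor receptor, fell with a log2 change of -0.72 ± 0.19, and Ephb2, an ephrin receptor, with -0.93 ± 0.20 (adjusted p = 0.0143 for both). Ddr2, a collagen-sensing kinase, had 43.8, 45.8 and 57.0 normalized counts in the Tg197 libraries and 162, 139.8 and 68.1 in the WT libraries at 8 weeks, with WT library c far below a and b, and a log2 change of -1.24 ± 0.46 (adjusted p = 0.0725). At 11 weeks 2 of 10 regions rose, in Axl and Ephb2, and 8 fell, near the 429 and 1329 of 1768 overall. Axl, a receptor for Gas6, had 137, 142 and 118 normalized counts in the Tg197 libraries and 85.0, 78.5 and 76.4 in the WT libraries and rose by 0.72 ± 0.15 (adjusted p = 0.00434), while Fgfr2 fell with a log2 change of -0.82 ± 0.19 and Map2k5 with -0.81 ± 0.21. The list had 0 distal regions after TNF.

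Very long neural and adhesion genes, 42 in the list, held few distal regions. At 3 weeks 7 genes had 1 region each, of which 6 fell and Magi2, a synaptic scaffold, rose, beside 3464 and 18 of 3525 overall. The Magi2 region lay 795.5 kb from the start at chr5:20208301-20209300, had 216, 206 and 167 normalized counts in the Tg197 libraries and 152, 127 and 145 in the WT libraries and rose by 0.47 ± 0.18 (adjusted p = 0.0247). Its enrichment was 7.21 in Tg197 cells and 3.49 in WT cells. Ptprd, a receptor phosphatase, fell with a log2 change of -0.83 ± 0.19, and Park2, an E3 ubiquitin ligase, had 84.2, 18.6 and 121 normalized counts in the Tg197 libraries and 148, 138 and 127 in the WT libraries, with library b far below the rest, and a log2 change of -1.25 ± 0.51. Rora, a nuclear receptor, and Cdh4, a cadherin, changed by -1.04 ± 0.36 and -0.73 ± 0.27. At 11 weeks both regions, in Rora and Wwox, rose, and Wwox, an oxidoreductase tumour suppressor, had 137, 118 and 97.1 normalized counts in the Tg197 libraries and 83.9, 65.4 and 78.6 in the WT libraries and a log2 change of 0.62 ± 0.18 (adjusted p = 0.00651).

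The 3 ages share no libraries, and the same places were seldom listed at more than 1 of them. By an overlap of at least 1 base, 138 pairs of regions were shared by 3 and 11 weeks, or 3.91% of the regions at 3 weeks and 7.64% of those at 11 weeks. Between 3 and 8 weeks there were 69 pairs, or 1.93% and 13.3%, and between 8 and 11 weeks 25 pairs, or 4.81% and 1.41%. By gene, 1707 genes had a lower distal region at 3 weeks, 409 at 8 weeks and 978 at 11 weeks, and 101 at all 3 ages. For higher regions the numbers of genes were 33, 17 and 392, and 0 at all 3 ages.

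Among genes lower at all 3 ages without overlap of the groups, the largest changes were in Emid2, Megf11, Runx1, Usp48, Nup210l and 1700112E06Rik. The places differed from age to age in each gene. Runx1, a transcription factor of stromal and blood cells, had 79.5, 66.7 and 89.6 normalized counts in the Tg197 libraries and 147, 149 and 152 in the WT libraries at 3 weeks (chr16:92671601-92672800), 48.1, 56.6 and 67.3 normalized counts in the Tg197 libraries and 192, 163 and 72.4 in the WT libraries at 8 weeks (chr16:92657801-92658900) and 48.2, 56.4 and 52.7 normalized counts in the Tg197 libraries and 128, 97.7 and 98.9 in the WT libraries at 11 weeks (chr16:92713301-92714300). Tg197 libraries were below WT libraries at each age, which the choice of these genes required. At 8 weeks the margin from WT library c was narrow. The log2 changes were -0.93 ± 0.19, -1.20 ± 0.43 and -1.03 ± 0.20 (adjusted p = 0.0143, 0.0725 and 0.00434 in limma). Megf11, an EGF-repeat membrane protein, had log2 changes of -1.23 ± 0.26, -0.94 ± 0.38 and -1.0 ± 0.20, and Usp48, a deubiquitinase, of -0.82 ± 0.24, -1.21 ± 0.38 and -1.08 ± 0.23. Nup210l, a nuclear pore protein, had log2 changes of -1.37 ± 0.34, -0.94 ± 0.42 and -0.80 ± 0.17.

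Where a place was listed at 3 and at 11 weeks, the directions were the same in most pairs and opposite in some. Of the 138 pairs, 100 were lower at both ages, 3 higher at both, 33 lower at 3 weeks and higher at 11 weeks, and 2 the reverse. The 33 and 3 pairs that were higher at 11 weeks are together close to the overall share of 24.1% at that age, when nearly all regions at 3 weeks were lower, so nothing particular to these places is read from the count. In 32 of the pairs the region fell at 3 weeks and rose at 11 weeks in limma. Smad3, a transducer of TGF-beta signals, was one of them. At 3 weeks (chr9:63497501-63499400) it had 163, 139 and 163 normalized counts in the Tg197 libraries and 229, 232 and 274 in the WT libraries, a log2 change of -0.66 ± 0.17, and at 11 weeks (chr9:63498501-63499600) it had 216, 127 and 124 normalized counts in the Tg197 libraries and 99.3, 91.6 and 104 in the WT libraries, a log2 change of 0.61 ± 0.20 (adjusted p = 0.0143 and 0.00967). Lrp5, a Wnt co-receptor, fell with a log2 change of -0.78 ± 0.24 at 3 weeks and rose by 0.66 ± 0.16 at 11 weeks. Tns1, a focal adhesion protein, fell with a log2 change of -0.65 ± 0.21 and rose by 0.56 ± 0.16. The tables were normalized separately, so levels were not compared across ages, and the difference between the ages was not tested.

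**Figure D5:**
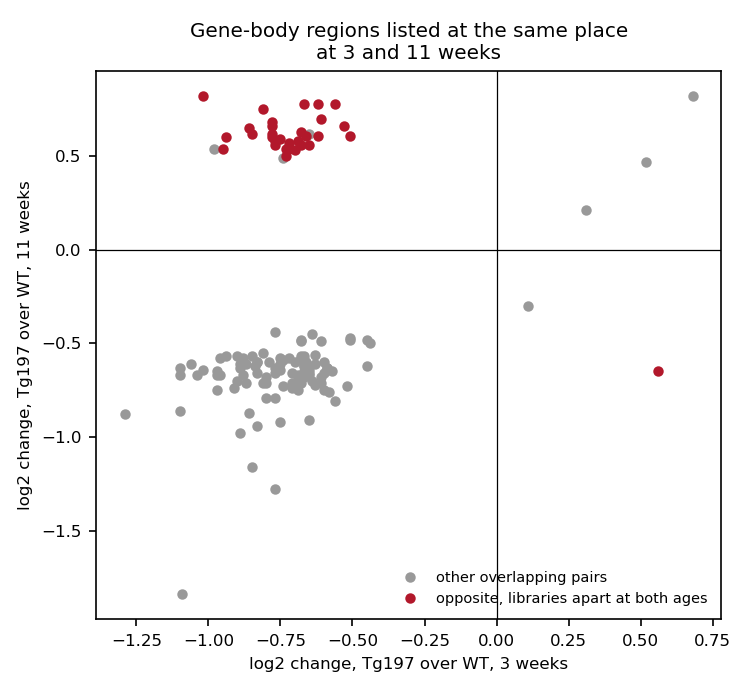
Log2 change by limma at 3 weeks (horizontal axis) and 11 weeks (vertical axis) of the 138 pairs of overlapping distal gene-body regions, 1 point per pair. Red points are the 31 pairs with opposite directions and no overlap between Tg197 and WT libraries at either age.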

How the data were processed

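The data were 4 deposited tables of mm9 regions; the build and the tools BWA, TopHat, TopHat2, Cufflinks and Cuffdiff are named in the submitters' processing notes without their roles, and no source used here names the region caller. Each region carries 3 normalized counts per group in 1 cell, made by the authors, per the file headers. The deposited group averages are the signal. The authors' enrichment columns are a ratio over an input. The authors' fold is on the log2 scale, treated over control, with a deposited p-value and adjusted p-value for the region and its best window. Distances and classes are those of the deposited annotation, and promoters reach 3 kb from a start site.

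Control was read as WT from the column headers and the description labels of the samples. All 162 control read counts of 54 regions with identical coordinates were equal in both 8-week tables, so these share their control libraries. In 100.0% of values dividing the normalized count by the value of a single read in its library gave a whole number to within 0.02, so reads and relative depth were recovered. The design had foreseen another unit, and because these values are not raw counts, each whole table was fitted with limma 3.58.1 (R 4.3.3) after adding 0.5 to the values and taking log2, using a variance trend, with Benjamini-Hochberg adjustment. The fit was also run on simulated counts with independent libraries and the same fixed dispersion in every region. Those counts do not hold the wider spread between some of these libraries, so nothing is concluded from them. Tables were never fitted together. Alternatives were a pseudocount of 2, a mean count of at least 20, 2 other scalings, voom on recovered reads, each library left out, regions beyond 50 kb, a stricter overlap rule, WT libraries a and b at 3 weeks counted as 1, and a stricter or a best-window adjusted p.

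The regions, gene lists and tests were chosen with earlier results of these data known. Named regions were, per comparison, the 6 largest changes in each direction among regions past the authors' adjusted p of 0.05 without overlap of the groups and with a mean of at least 20 in the higher group, 1 per gene; the 3 genes with the most regions; the 3 highest counts; and, over tables, the 6 genes with the largest changes at all 3 ages, the 6 list members with the smallest authors' p, and regions at the distance limit. The regions of list members and of genes at all 3 ages were also chosen among those past that p without overlap of the groups. Genes of the opposed promoter pattern and of opposite ages were chosen after seeing their values. Sequences of the listed regions were not used here, and 1 region and 1 marker that these rules name are not reported here.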

Additional observations from a re-analysis of the deposited data

Results flagged for a closer look

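Some overlapping distal gene-body regions went in opposite directions at 2 ages with every Tg197 library on one side of every WT library at the first age and on the other side at the second, and this difference between ages was not tested. There were 31 such pairs between 3 and 11 weeks, 30 of them lower at 3 weeks and higher at 11 weeks, and the exception lay in Macf1. Over all distal gene-body regions 98.4% were lower at 3 weeks and 24.1% higher at 11 weeks, and 33 plus 3 of the 138 shared pairs were higher at 11 weeks, so the count of opposite pairs is near what these overall shares give. There were 5 between 8 and 11 weeks, all lower at 8 weeks and higher at 11 weeks, and 1 between 3 and 8 weeks. The pair between 3 and 8 weeks lay in Sh3pxd2a, which had 107, 128 and 181 normalized counts in the Tg197 libraries and 85.1, 95.0 and 90.0 in the WT libraries at 3 weeks and 65.2, 83.6 and 89.5 normalized counts in the Tg197 libraries and 156, 139.8 and 94.7 in the WT libraries at 8 weeks. Fbxw8, an F-box protein, had 33.7, 66.1 and 51.5 normalized counts in the Tg197 libraries and 174, 152 and 79.6 in the WT libraries at 8 weeks and 111, 108 and 98.8 normalized counts in the Tg197 libraries and 79.5, 41.9 and 66.3 in the WT libraries at 11 weeks. Slc12a8 had 109, 82.9 and 126 normalized counts in the Tg197 libraries and 172, 187 and 191 in the WT libraries at 3 weeks and 136, 133 and 101 normalized counts in the Tg197 libraries and 82.8, 62.8 and 73.0 in the WT libraries at 11 weeks.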

How the results depend on the processing

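The tables hold only regions that differed, and the scale rests on the authors' normalization, so a direction holds under that scaling. No paired analysis was possible because the values in the deposited cells carry no replicate numbers. Scaling to the median of all listed regions gave, among distal gene-body regions, 29 that rose and 2 that fell at 3 weeks, 12 and 27 at 8 weeks, 436 and 262 at 11 weeks, and 11 and 62 after TNF. The medians were then -0.09, -0.35 and -0.30 at 3, 8 and 11 weeks. When libraries were scaled to the regions nearest the start sites (1 kb), 0 rose at 3 weeks, 417 fell at 8 weeks and 4 rose after TNF, with medians of -1.09 at 3 weeks and -0.79 at 11 weeks. With voom 4 rose after TNF.

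Leaving out 1 library gave 0 to 28 rises and 0 to 3484 falls at 3 weeks, 0 to 6 and 0 to 499 at 8 weeks, 390 to 430 and 1293 to 1326 at 11 weeks, and 0 to 8 and 0 to 305 after TNF. The counts of 0 came without WT library c at 3 weeks and without TNF-treated library b or c or WT library a or b after TNF, and at 8 weeks calls appeared without WT library c. Counting WT libraries a and b at 3 weeks as 1, an alternative chosen after seeing the data, gave 3 rises and 2658 falls.

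Beyond 50 kb, 10 rose and 1116 fell at 3 weeks, 138 and 479 at 11 weeks, and 5 and 54 after TNF. There the authors' adjusted p gave 15 higher and 1118 lower, 11 and 142, 137 and 472, and 4 and 88 in the order of 3, 8 and 11 weeks and TNF. At an authors' adjusted p of 0.001 there were 7 higher and 289 lower at 8 weeks, 216 and 769 at 11 weeks, and 117 lower after TNF. The stricter overlap rule left 15 shared pairs between 8 and 11 weeks.

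Among single regions, the scaling to all listed regions turned 2610005L07Rik to 0.25, the 6820431F20Rik regions to 0.14 and 0.19, Kctd16 at 8 weeks to 0.55, Traf2 to 0.01, Itgb5 to 0.03 and Ski to 0.02. Kctd16 also turned to 0.21 with voom, and leaving out 1 library gave it -0.71 to 0.56 (above 0 without Tg197 library a), against -0.16 ± 0.66 (SE) with all libraries. Cdk8 turned to -0.02 under the scaling to regions within 1 kb, and leaving out 1 library gave Rnasen -0.07 (without Tg197 library b) to 1.14. A pseudocount of 2 and a mean count of at least 20 changed no call among the 131 named regions, and the cause of the other changes was not tested.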

Other observations

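In 12 of the 34 higher regions at 3 weeks and 5 of the 18 at 8 weeks, 1 Tg197 library was at least 1.5 times above the next. At 11 weeks this held for 27 of 426 higher regions, and after TNF for 0 of 10. Regions of Zfp395 and Rnasen are named here after their values were seen. In Zfp395 at 3 weeks there were 84.2, 60.3 and 238 normalized counts in Tg197 libraries a, b and c, against 79.8, 71.5 and 54.2 in WT libraries a, b and c, with a log2 change of 0.65 ± 0.41 that did not pass limma (adjusted p = 0.143). In Rnasen at 8 weeks, the gene of the microRNA-processing nuclease Drosha, there were 83.9, 456 and 162 normalized counts in Tg197 libraries a, b and c, against 102, 146 and 124 in WT libraries a, b and c, with a log2 change of 0.58 ± 0.53 (adjusted p = 0.306).

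At 3 weeks, 12.3% of the distal gene-body regions lay on chromosome 2 and 13.1% on chromosome 4, beside 9.15% and 8.84% of all listed regions, which include chromosome 11. Leaving out chromosome 11 raises the share of every other chromosome, so no excess on chromosomes 2 and 4 is read from these shares. Chromosome X held 5 of 3525 at 3 weeks and 1 of 1768 at 11 weeks, or 0.142% and 0.0566%, beside 0.669% and 0.607% of all listed regions.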
